A study of Homo sapiens with 6 samples.

Results

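The ERK feedback and ETS output genes are 10 transcripts by which cells register and restrain signalling through the RAS-ERK kinase cascade: the phosphatase genes DUSP4, DUSP5 and DUSP6, the Sprouty genes SPRY1, SPRY2 and SPRY4, the Sprouty-related gene SPRED1, and the ETS factor genes ETV1, ETV4 and ETV5. They were chosen by gene name from the per-library count tables, 10 genes of 58735 listed, and all 10 passed the low-count filter that left 16340 genes. RNA was sequenced from A549 cells, a human lung adenocarcinoma line, in 3 groups of 2 libraries. T133A cells were stably infected with a PLVX lentivirus carrying HOXB9 in which a threonine is replaced by alanine; the labels describe the KO group as a HOXB9 knockout, also with a PLVX lentivirus; WT cells carried the unchanged HOXB9 construct. All 3 groups were thus lentivirally infected, no empty-vector or uninfected group was analysed, and the labels leave unstated whether the endogenous HOXB9 gene was still present in T133A and WT and whether a group was 1 clone. Separate cultures are not named for the libraries of a group either; the p-values therefore reflect library-to-library spread alone, which may be technical.

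ERK, the last kinase of the cascade, phosphorylates nuclear and cytoplasmic targets, and a set of genes that it switches on in turn feeds back on it. DUSP phosphatases remove the activating phosphates from ERK, Sprouty and SPRED proteins act further up, on receptors, RAS and RAF, and the PEA3-group factors ETV1, ETV4 and ETV5 carry part of the transcriptional output. In lung adenocarcinoma cells these transcripts are widely read as a sign of how active the pathway is. The RNA counts analysed here say nothing of kinase activity or protein levels.

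Total counts ran from 17027686 to 18344938 in T133A, from 16299059 to 18745432 in KO and from 16692104 to 17577009 in WT. HOXB9 was counted 4777 and 3577 times in T133A, 239 and 286 times in KO and 3807 and 3889 times in WT, 14.7-fold lower in KO than in WT. Genes of the mitochondrial genome took 8.51% to 8.91% of counts in T133A, 4.45% to 5.60% in KO and 7.84% to 7.87% in WT. The 5 epithelial markers summed to 7185 to 8672 CPM in T133A, 5966 to 7228 CPM in KO and 7775 to 8353 CPM in WT, with EPCAM at means of 12.7, 1.83 and 15.7 CPM in T133A, KO and WT, CDH1 at 132, 71.7 and 132 CPM, and KRT19 at 32.3, 42.3 and 40.04 CPM. The 4 enzyme genes known to be abundant in A549 summed to 10719 to 10990 CPM in T133A, 8463 to 8811 CPM in KO and 13541 to 13921 CPM in WT; AKR1C1 averaged 641, 190.3 and 812 CPM in T133A, KO and WT. Of the markers of other cell types, 6 fibroblast genes summed to 40.1 to 42.0 CPM in T133A, 9.64 to 10.5 CPM in KO and 41.8 to 42.0 CPM in WT (LUM and COL3A1 held most of this in T133A and WT, and COL1A1, at 7.33, 9.46 and 6.38 CPM in T133A, KO and WT, nearly all of it in KO), 6 haematopoietic genes to 14.0 to 17.5, 10.9 to 16.0 and 9.52 to 13.0 CPM, and 5 endothelial genes to 2.18 to 2.35, 0.303 to 0.323 and 0.835 to 1.75 CPM. The mitochondrial share, EPCAM, CDH1, AKR1C1, LUM, COL3A1 and the sums of the A549 enzymes and the endothelial genes were thus lowest in KO, while COL1A1 and KRT19 were not, and their part in the results for KO was not tested.

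KO cells had less RNA of 5 of the 10 genes than WT cells, and of none more. SPRY1, whose protein restrains receptor-driven RAS activation, was 5.56-fold lower, SPRY2 2.10-fold, ETV4 1.99-fold, DUSP6 1.88-fold and DUSP4 1.204-fold. T133A cells differed from WT cells in none of the 10 genes past the threshold, an adjusted p under 0.05 by edgeR's quasi-likelihood test. In bulk RNA, fewer cells that express a gene and less RNA per cell cannot be told apart. Set against KO, T133A cells had more of the same 5 transcripts and of SPRY4. Across all genes tested, 46.6% were called in KO with WT (23.6% higher and 23% lower) and 39.9% in T133A with KO (20.3% higher and 19.6% lower), so 5 and 6 calls among 10 are near that background in number. By size, 2 of the 10 (SPRY1 and SPRY2) were called lower by at least 1 on the log2 scale in KO with WT, against 10.6% of all genes tested (4.63% were higher by that much). In T133A with KO, 4 of the 10 (SPRY1, DUSP6, ETV4 and SPRY2) were higher by at least 1, against 9.24% of all genes (3.6% were lower by that much).

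**Figure D1:**
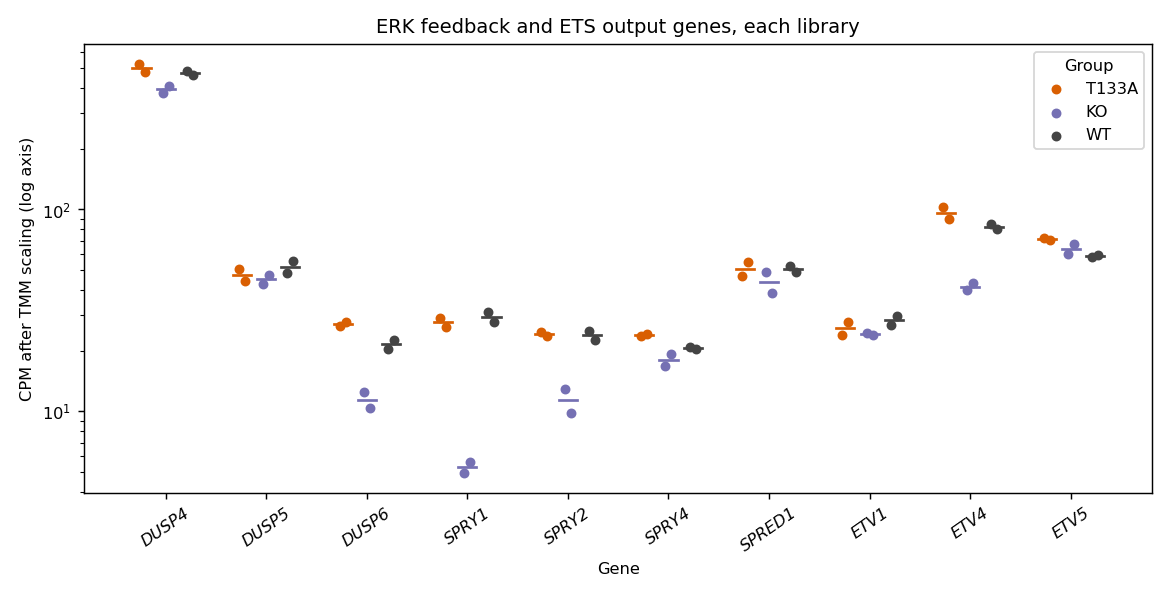
Level of each gene in each library, in CPM after TMM scaling on a log axis; points are libraries, bars the mean of the 2 libraries of a group. SPRY1 lies at 4.97 and 5.59 CPM in KO and at 26.2 CPM or more in every T133A and WT library, while DUSP5 and SPRED1 lie close together in all 3 groups.

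Promoter windows are shown for the 3 genes of largest fall in KO for which a RefSeq window was at hand. Each window (GRCh38.p14) runs from 250 bases before to 50 after an annotated start. For SPRY1 and SPRY2 the window that held a motif is shown. Capitals mark matches to motifs searched on both strands: the ETS core CCGGAA in SPRY1 and SPRY2, and in DUSP6 the octamer of Capicua (CIC), a repressor that ERK signalling inactivates, here as the reverse complement of TCAATGGA.
SPRY1 promoter, chr4:123398136-123398435, plus strand: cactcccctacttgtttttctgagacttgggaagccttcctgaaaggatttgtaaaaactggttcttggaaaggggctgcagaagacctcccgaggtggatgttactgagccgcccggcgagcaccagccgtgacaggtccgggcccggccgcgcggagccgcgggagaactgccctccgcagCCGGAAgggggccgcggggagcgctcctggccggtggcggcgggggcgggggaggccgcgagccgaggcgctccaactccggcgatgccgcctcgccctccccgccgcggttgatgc
SPRY2 promoter, chr13:80341077-80341376, minus strand: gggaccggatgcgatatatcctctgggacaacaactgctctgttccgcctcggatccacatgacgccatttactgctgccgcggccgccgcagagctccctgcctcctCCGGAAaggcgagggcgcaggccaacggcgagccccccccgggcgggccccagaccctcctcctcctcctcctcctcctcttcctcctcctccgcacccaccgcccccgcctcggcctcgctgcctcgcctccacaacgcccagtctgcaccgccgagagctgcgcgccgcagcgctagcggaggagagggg
DUSP6 promoter, chr12:89352452-89352751, minus strand: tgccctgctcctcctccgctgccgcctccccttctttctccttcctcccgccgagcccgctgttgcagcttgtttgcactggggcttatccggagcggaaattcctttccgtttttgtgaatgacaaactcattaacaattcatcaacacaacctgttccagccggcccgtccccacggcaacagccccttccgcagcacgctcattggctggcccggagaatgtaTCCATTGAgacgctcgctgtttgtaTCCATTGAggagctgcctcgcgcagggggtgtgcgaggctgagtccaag
The DUSP6 window held 2 copies of the CIC octamer, one beginning 24 bases before the start site and the other 1 base after it. Among all 35116 promoter windows, 3.77% held any of the 4 octamer spellings searched (TGAATGAA, TCAATGAA, TGAATGGA and TCAATGGA). The ETS core stood 67 bases before the SPRY1 start and 142 bases before the SPRY2 start, and 17.2% of all windows held it. SPRY1 and SPRY2 have further annotated starts whose windows held none of the motifs. Among them is the window around the start of the annotated SPRY1 gene, chr4:123396545-123396844. The SPRY2 window shown lies wholly upstream of the annotated SPRY2 gene, which begins at 80340951 on the minus strand. The DUSP6 window lies inside the annotated DUSP6 gene, which begins at 89353271 on the minus strand. In all, 6 of the 10 genes had windows in the table (14 windows, several of ETV1 overlapping); 5 windows of 3 genes held the ETS core, 2 windows of 2 genes (DUSP6 and ETV1) the CIC octamer, 1 window of ETV1 the homeodomain core TAATTA (4.84% of all windows) and none the AP-1 motif TGANTCA (7.71% of all windows). These motifs do not overlap one another in these windows, and a match is a description of letters only.

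Among the phosphatases, DUSP6 stood out. DUSP6 (ENSG00000139318, chromosome 12, 89347232 to 89353271, minus strand, GRCh38) encodes a cytoplasmic phosphatase specific for ERK. It was counted 461 and 473 times in T133A, 206 and 192 times in KO and 347 and 406 times in WT. Scaled, this was 26.5 and 27.8 CPM in T133A, 12.5 and 10.3 CPM in KO, and 20.3 and 22.6 CPM in WT. No 2 groups overlapped: both T133A libraries were the highest and both KO libraries the lowest. The log2 fold change was -0.91 for KO with WT (SE 0.150, adjusted p = 3.17e-05) and 1.25 for T133A with KO (SE 0.148, adjusted p = 5.00e-07). For T133A with WT it was 0.34 (SE 0.141, 95% interval 0.05 to 0.63), which did not pass (adjusted p = 0.145).

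DUSP4 (ENSG00000120875, chromosome 8, 29333064 to 29350668), a nuclear phosphatase of ERK and JNK, had 523 and 481 CPM in T133A, 379 and 409 CPM in KO, and 484 and 464 CPM in WT. The KO libraries lay below the other 4, and the T133A and WT libraries overlapped. DUSP4 changed by -0.27 on the log2 scale for KO with WT (SE 0.101, adjusted p = 0.0336) and 0.35 for T133A with KO (SE 0.101, adjusted p = 0.00779). For T133A with WT it was 0.08 (95% interval -0.12 to 0.29, adjusted p = 0.680). The call in KO with WT ended without either WT library, without KO replicate 1, with no low-count filter and with the replicate number as a block, with adjusted p over all alternatives of 9.07e-04 to 0.281. DUSP5 (ENSG00000138166, chromosome 10, 110497838 to 110511544), a nuclear phosphatase specific for ERK, had 50.8 and 44.4 CPM in T133A, 42.8 and 47.3 CPM in KO, and 48.4 and 55.3 CPM in WT. It passed in no comparison. The log2 fold change was -0.12 for T133A with WT (95% interval -0.37 to 0.13), -0.20 for KO with WT (95% interval -0.46 to 0.05) and 0.08 for T133A with KO (95% interval -0.17 to 0.33). A correction for GC content and length called DUSP5 lower in KO with WT, at -0.35 (adjusted p = 0.00220; range over the alternatives 0.00220 to 0.689).

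The Sprouty genes gave the largest difference and one of the smaller ones. SPRY1 (ENSG00000164056, chromosome 4, 123396795 to 123403760, plus strand) was counted 505 and 446 times in T133A, 82 and 104 times in KO and 533 and 500 times in WT. Its level was 28.997 and 26.2 CPM in T133A, 4.97 and 5.59 CPM in KO, and 31.1 and 27.8 CPM in WT. The KO libraries lay far below the other 4, which overlapped. The log2 fold change was -2.48 for KO with WT (SE 0.159, adjusted p = 1.83e-11) and 2.38 for T133A with KO (SE 0.159, adjusted p = 3.56e-11). For T133A with WT it was -0.09 (SE 0.136, 95% interval -0.38 to 0.19, adjusted p = 0.738).

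SPRY2 (ENSG00000136158, chromosome 13, 80335976 to 80340951, minus strand), which encodes a Sprouty protein that binds GRB2 and the ubiquitin ligase CBL, was counted 428 and 402 times in T133A, 213 and 182 times in KO and 426 and 407 times in WT. It had 24.6 and 23.6 CPM in T133A, 12.9 and 9.78 CPM in KO, and 24.9 and 22.7 CPM in WT. KO again stood alone. For SPRY2 it was -1.07 for KO with WT on the log2 scale (SE 0.154, adjusted p = 6.51e-06) and 1.09 for T133A with KO (SE 0.154, adjusted p = 5.98e-06). For T133A with WT it was 0.02 (95% interval -0.28 to 0.32, adjusted p = 0.959), and library-size scaling turned its sign, at -0.05.

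SPRY4 (ENSG00000187678, chromosome 5, 142310427 to 142326455), a Sprouty protein gene of the same inhibitory class, had 23.7 and 24.01 CPM in T133A, 16.7 and 19.2 CPM in KO, and 20.9 and 20.3 CPM in WT. The 3 groups did not overlap, in the order T133A, WT, KO. Only T133A with KO passed (log2 fold change 0.41, SE 0.139, adjusted p = 0.0231), and it did not with no low-count filter, without either WT library or without KO replicate 1 (adjusted p over all alternatives 0.00238 to 0.188). The log2 fold change was 0.21 for T133A with WT (95% interval -0.07 to 0.50) and -0.19 for KO with WT (95% interval -0.48 to 0.10). SPRED1 (ENSG00000166068, chromosome 15, 38252326 to 38357249), whose protein brings the RAS inactivator neurofibromin to the membrane, had 47.0 and 54.7 CPM in T133A, 48.8 and 38.6 CPM in KO, and 52.5 and 48.8 CPM in WT. Its log2 fold change was 0.004 for T133A with WT (95% interval -0.26 to 0.27), -0.22 for KO with WT (95% interval -0.48 to 0.05) and 0.22 for T133A with KO (95% interval -0.05 to 0.49), none past the threshold. For KO with WT the sign turned with the GC and length correction, at 0.09. T133A with KO passed without T133A replicate 1 (log2 fold change 0.35, adjusted p = 0.0309; range over the alternatives 0.0309 to 0.768).

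The PEA3-group factors did not move as a group. ETV4 (ENSG00000175832, chromosome 17, 43527844 to 43579620, minus strand) was counted 1796 and 1521 times in T133A, 655 and 800 times in KO and 1448 and 1432 times in WT. This was 103 and 89.3 CPM in T133A, 39.7 and 43.0 CPM in KO, and 84.5 and 79.7 CPM in WT. All 3 groups were separate, with T133A highest and KO lowest. The log2 fold change was -0.99 for KO with WT (SE 0.114, adjusted p = 2.53e-07) and 1.22 for T133A with KO (SE 0.114, adjusted p = 1.10e-08). T133A with WT did not pass (log2 fold change 0.23, SE 0.110, adjusted p = 0.217); it did without T133A replicate 2 (log2 fold change 0.33, adjusted p = 0.0358; range over the alternatives 0.0358 to 0.740).

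ETV5 (ENSG00000244405, chromosome 3, 186046308 to 186110318, minus strand) had 72.1 and 70.6 CPM in T133A, 60.1 and 67.1 CPM in KO, and 58.2 and 59.8 CPM in WT. The groups did not overlap, yet no difference passed: the log2 fold change was 0.27 for T133A with WT (SE 0.109, 95% interval 0.05 to 0.50, adjusted p = 0.126), 0.11 for KO with WT (95% interval -0.12 to 0.33, adjusted p = 0.438) and 0.17 for T133A with KO (95% interval -0.06 to 0.39, adjusted p = 0.241). With the GC and length correction T133A with WT passed (adjusted p = 0.0490; range over the alternatives 0.0490 to 0.607). ETV1 (ENSG00000006468, chromosome 7, 13891228 to 13991425, minus strand) had 24.001 and 27.8 CPM in T133A, 24.4 and 23.9 CPM in KO, and 26.8 and 29.6 CPM in WT. Its log2 fold change was -0.12 for T133A with WT (95% interval -0.40 to 0.15), -0.22 for KO with WT (95% interval -0.50 to 0.05) and 0.10 for T133A with KO (95% interval -0.18 to 0.38), and all 3 signs turned with the GC and length correction (0.04, 0.13 and -0.09). The ETV4 interval for KO with WT, -1.22 to -0.75, did not meet that of ETV5 or ETV1.

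**Figure D2:**
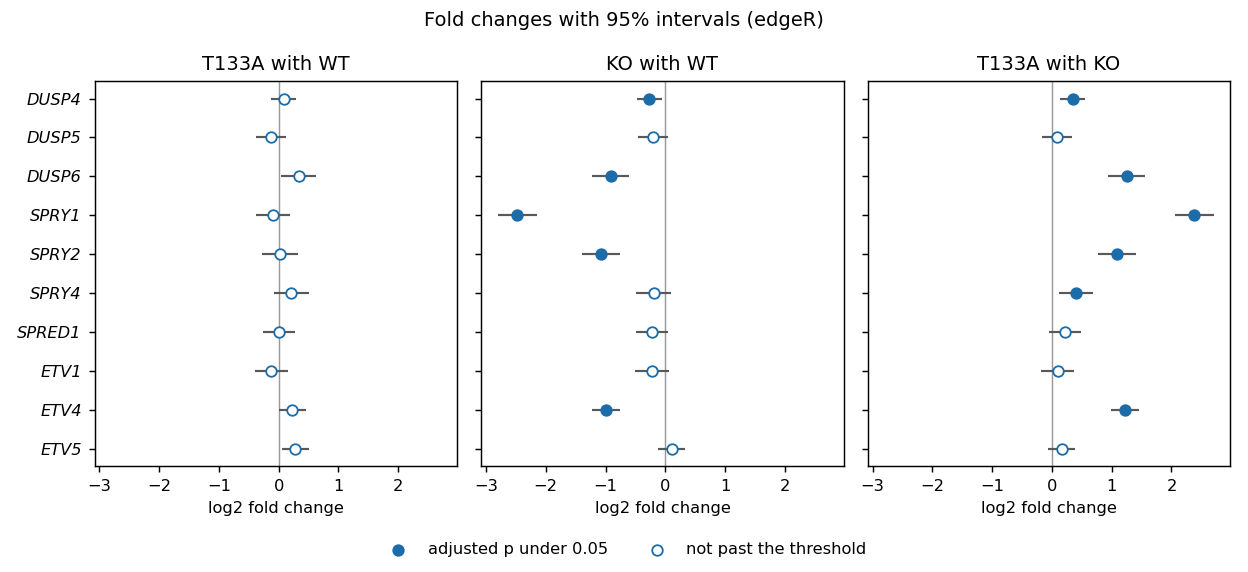
log2 fold change (x axis) of each gene in the 3 comparisons, with 95% intervals from edgeR; filled points passed an adjusted p of 0.05. None of the 10 passed in T133A with WT, 5 were lower in KO than in WT, and 6 were higher in T133A than in KO.

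In T133A with WT the count of 0 among 10 called by edgeR stood against 9.55% of all genes tested, 5.58% higher and 3.97% lower. Those past 1 on the log2 scale made up 1.74% higher and 0.894% lower. Library-size scaling turned the split of the calls, 912 higher and 648 lower, to 668 higher and 818 lower. At an unadjusted p under 0.05 there were 3 of the 10 (DUSP6, ETV4 and ETV5, each higher in T133A), against 23.0% of all genes, and DESeq2 also called 0. The median log2 fold change of the 10 was 0.05, beside 0.004 for all genes tested. In KO with WT the median of the 10 was -0.25, beside 0.001 for all genes. There 9 of the 10 had a negative fold change, except that SPRED1 and ETV1 were positive with the GC and length correction. In T133A with KO the median was 0.38, beside -0.01 for all genes, and all 10 fold changes were positive, except that ETV1 was negative with the GC and length correction and without T133A replicate 2, and DUSP5 without KO replicate 1. T133A with KO and KO with WT share the KO libraries, and T133A with WT and KO with WT share the WT libraries, so these comparisons are not independent of each other.

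**Figure D3:**
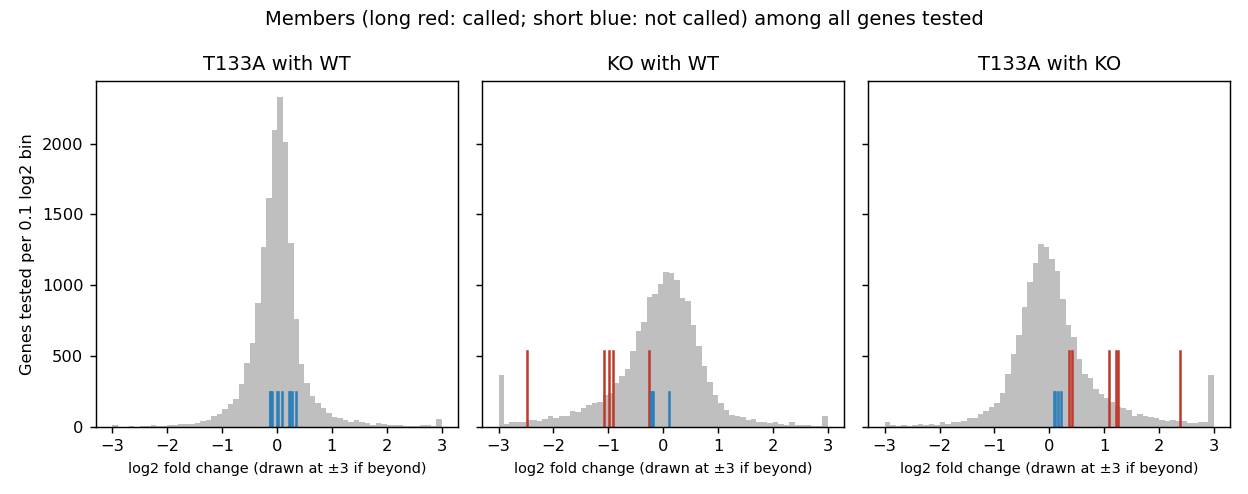
Histogram of log2 fold changes (x axis, values beyond 3 in either direction drawn at the edge) of all 16340 genes tested, in each comparison, with the 10 genes as vertical lines (long red, called; short blue, not called). The 10 genes lie within the central mass in T133A with WT, and SPRY1 lies at -2.48 in KO with WT and at 2.38 in T133A with KO.

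Levels of different genes can be set side by side only per length, here as the authors' deposited FPKM (mean ± SD of 2 libraries). DUSP4 was the most abundant of the 10 in every group, at 68.7 ± 3.003 FPKM in T133A, 54.2 ± 4.04 FPKM in KO and 64.9 ± 2.20 FPKM in WT. In T133A and WT it was followed by ETV4, DUSP5, ETV5, SPRY2, SPRY1, SPRED1, DUSP6, SPRY4 and ETV1, with overlapping libraries between SPRY1 and SPRED1 and between SPRED1 and DUSP6 in T133A, and between SPRY2 and SPRY1 in WT. In KO the order below DUSP4 was DUSP5, ETV4, ETV5, SPRED1, SPRY2, SPRY4, ETV1, DUSP6 and SPRY1, where ETV4 and ETV5, SPRY4 and ETV1, and ETV1 and DUSP6 overlapped. SPRY1 thus ranked 6 in T133A and WT, at 6.91 ± 0.386 FPKM in T133A and 7.40 ± 0.608 FPKM in WT, and last in KO, at 1.33 ± 0.137 FPKM.

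The summed FPKM of SPRY1, SPRY2, SPRY4 and SPRED1 was 24.2 and 24.8 in T133A, 13.8 and 12.4 in KO, and 25.5 and 23.3 in WT. SPRY1 made up 29.6% and 26.8% of that sum in T133A, 8.98% and 11.5% in KO, and 30.7% and 29.9% in WT. SPRED1 made up 23.0% and 26.8% in T133A, 42.3% and 38.2% in KO, and 24.9% and 25.2% in WT. The ETV sum was 42.7 and 40.0 FPKM in T133A, 23.6 and 26.3 FPKM in KO, and 36.1 and 35.2 FPKM in WT, of which ETV4 made up 65.7% and 62.2% in T133A, 46.0% and 45.9% in KO, and 64.6% and 62.3% in WT. ETV5 therefore held nearly as large a share as ETV4 in KO, 43.3% and 44.5%, against 28.5% and 30.6% in T133A and 27.7% and 29.04% in WT. The make-up of the phosphatases changed less: DUSP4 held 71.1% to 74.4% of the DUSP sum in all 6 libraries, and DUSP6 5.88% and 6.72% in T133A, 3.79% and 2.91% in KO, and 4.88% and 5.43% in WT.

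**Figure D4:**
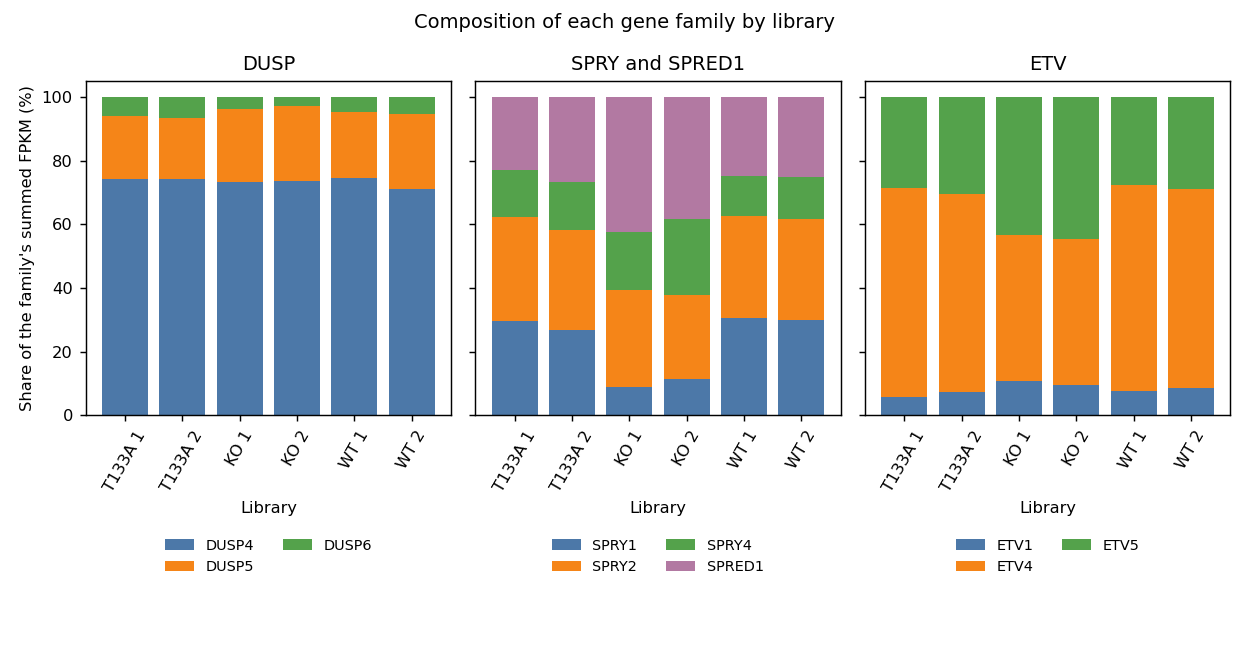
Share of each gene in the summed deposited FPKM of its family (y axis, %), for each library. The SPRY1 share falls to 8.98% and 11.5% in the KO libraries, and the ETV4 share to 46.0% and 45.9%, while the DUSP shares change less.

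Of the annotated neighbours that overlap these genes, DHX8, on the strand opposite ETV4, had 130 ± 8.04 CPM in T133A, 123 ± 16.0 CPM in KO and 118 ± 0.443 CPM in WT, with no difference past the threshold. DGKG, on the same strand as ETV5, had 15.3 ± 0.826 CPM in T133A, 19.6 ± 3.50 CPM in KO and 14.3 ± 0.840 CPM in WT and was higher in KO than in WT (log2 fold change 0.45, adjusted p = 0.0209). SPRY4-AS1 had 10 to 26 counts per library. Without a stated strand setting for the counting, it is not known whether overlapping reads of the opposite-strand pairs were told apart. For DGKG and ETV5, on the same strand, a strand setting would not separate such reads.

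The other phosphatase genes of the MAP kinases, 6 tested of 7 listed, changed in both directions in KO. DUSP16, which acts mainly on JNK, was 145.8 ± 0.207 CPM in T133A, 37.2 ± 0.551 CPM in KO and 102 ± 7.19 CPM in WT: higher in T133A than in WT (log2 fold change 0.51, adjusted p = 0.00178), lower in KO than in WT (-1.46, adjusted p = 2.12e-10), with T133A above KO (1.97, adjusted p = 1.10e-12). The rise in T133A was lost without WT replicate 2 (adjusted p = 0.144). DUSP8 and DUSP10, phosphatases of the stress kinases, fell in KO against WT (-0.98 and -0.52), and DUSP7, a cytoplasmic ERK phosphatase, rose (1.04). The DUSP10 fall was called in 8 of the 15 alternatives. In T133A with KO, DUSP8 and DUSP10 were higher (0.86 and 0.58) and DUSP7 lower (-0.57); the DUSP10 call was lost without KO replicate 1 (adjusted p = 0.126), and the DUSP7 call without T133A replicate 2 or KO replicate 2 (0.165 and 0.140) and with the GC and length correction (0.0544). In all, 1 of the 6 rose and 3 fell in KO with WT (23.6% and 23% of all genes tested), 3 were higher and 1 lower in T133A with KO (20.3% and 19.6%), and 1 rose and 0 fell in T133A with WT (5.58% and 3.97%).

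Of 11 other feedback inhibitors of receptors and RAS, 1 rose and 5 fell in KO with WT, where 46.6% of all genes tested were called, with a median log2 fold change of -0.28 (0.001 for all genes). LRIG1, which promotes the breakdown of EGFR-family receptors, had 59.0 ± 6.46 CPM in T133A, 17.7 ± 0.308 CPM in KO and 43.6 ± 1.29 CPM in WT (log2 fold change -1.30 for KO with WT, adjusted p = 2.39e-08, and 1.73 for T133A with KO, adjusted p = 1.97e-10). ERRFI1, an inhibitor of the EGFR kinase, fell by 0.49 on the log2 scale in KO against WT and was higher by 0.56 in T133A than in KO. SPRY3 fell (-1.16) but lost the call without WT replicate 2 (-0.66, adjusted p = 0.182), and PEBP1, an inhibitor of RAF, rose (0.38) and lost it without WT replicate 1 (adjusted p = 0.108). In T133A with KO, where 39.9% of all genes were called, 6 were higher and 1, PEBP1, lower (-0.35); CBL, a ubiquitin ligase of receptors, was among the higher (0.41). In T133A with WT, where 9.55% of all genes were called, 2 rose, LRIG1 (0.44, adjusted p = 0.0217) and IL17RD (0.67, adjusted p = 0.0470), and each lost the call without either WT library, without T133A replicate 1 and with library-size scaling. IL17RD held in 8 of the 15 alternatives.

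The 21 listed genes of the cascade, from adaptors and RAS through ERK to the ERK-activated RSK kinases, were all tested. Against WT, KO cells had 5 higher and 7 lower (46.6% of all genes called), with a median of -0.03: HRAS (0.86) and MAPK3, which encodes ERK1 (0.76), rose, and the RAS exchange factor gene SOS2 (-0.86) and the ERK-activated kinase gene RPS6KA3 (-0.58) fell. Against KO (39.9% of all genes called), T133A cells had 6 higher, among them KSR2, a scaffold of the cascade (1.19), and the ERK-activated kinase gene RPS6KA2 (1.71), and 3 lower, among them HRAS (-0.79) and MAPK3 (-0.51). The RPS6KA2 difference lay at a low level, 3.25 CPM in T133A and 0.979 CPM in KO. In T133A with WT (9.55% of all genes called) 1 rose, MAP2K2, which encodes MEK2 (0.37, adjusted p = 0.0415). That call held in 8 of the 15 alternatives; it was lost without T133A replicate 1 (0.20, adjusted p = 0.358), without either WT library, with DESeq2, with library-size scaling, with the filter at 5 CPM and with the replicate block, and the T133A libraries differed (SD 24.4 CPM on a mean of 139.6 CPM).

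Among 17 tested of 24 other ETS factor genes, the 2 lowest fold changes for KO with WT were those of the epithelial factors SPDEF and EHF. EHF had 93.3 ± 1.80 CPM in T133A, 8.89 ± 0.634 CPM in KO and 86.1 ± 3.54 CPM in WT (log2 fold change -3.28 for KO with WT and 3.39 for T133A with KO). SPDEF had 8.38 ± 1.39 CPM in T133A, 3.02 ± 0.670 CPM in KO and 34.9 ± 1.78 CPM in WT (-3.52 for KO with WT, 1.46 for T133A with KO and -2.06 for T133A with WT). ETS1, a factor that ERK phosphorylates, rose in KO against WT (1.29), as did ELK1, a partner of serum response factor that ERK also phosphorylates (0.62). ELK3, of the same subgroup as ELK1, was higher in T133A than in WT (0.81) and than in KO (0.75), ETS1 was lower in T133A than in KO (-0.85), and ETS2 was lower in T133A than in WT (-0.52), a call lost without WT replicate 1 (adjusted p = 0.128). Of the 17, 1 was higher and 2 lower in T133A with WT (9.55% of all genes called), 3 higher and 5 lower in KO with WT (46.6%), and 6 higher and 4 lower in T133A with KO (39.9%).

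Other genes known as ERK outputs moved in both directions in KO. Of 15 tested, 10 rose and none fell in T133A with WT, where none of the 10 ERK feedback and ETS output genes was called and 5.58% of all genes tested rose, with a median log2 fold change of 0.54. IER3, an early response gene, had 282 ± 48.8 CPM in T133A and 136.6 ± 0.171 CPM in WT (log2 fold change 1.04), MAFF, a small MAF factor, rose by 1.16, HMGA2, a chromatin architecture protein, by 0.90, and PLAUR, the urokinase receptor, by 0.69. In KO with WT 10 rose and 4 fell, against 23.6% and 23% of all genes tested, with a median of 0.54. FOSL1, an AP-1 subunit that ERK stabilizes, had 17.4 ± 3.58 CPM in T133A, 99.3 ± 8.30 CPM in KO and 9.14 ± 0.300 CPM in WT (3.44 for KO with WT and -2.51 for T133A with KO). HMGA1 (1.42) and HMGA2 (1.49) also rose in KO against WT, and the membrane protein gene EMP1 fell (-2.08). Of the 15, 4 were higher in T133A with KO, among them EMP1 (2.08), PLAUR (1.75) and MAFF (1.64), and 8 lower, against 20.3% and 19.6% of all genes tested. SPRY1, DUSP6 and ETV4 were lower in KO in the same libraries in which FOSL1, HMGA1 and HMGA2 were higher.

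Of 7 regulators of the PEA3-group factors, 0 were called by edgeR in T133A with WT, 0 had an unadjusted p under 0.05 and DESeq2 called 0. There the most abundant, DDB1, a subunit of a ubiquitin ligase, stood at 0.20 (adjusted p = 0.268). Between KO and WT, 2 rose and 2 fell, where 46.6% of all genes tested were called. CIC, the repressor named above, had 186 ± 27.5 CPM in T133A, 239 ± 23.3 CPM in KO and 189.9 ± 3.798 CPM in WT (0.33 for KO with WT, adjusted p = 0.0176, and -0.36 for T133A with KO, adjusted p = 0.0124), and both calls were lost with the GC and length correction (adjusted p = 0.0978 and 0.269) and without KO replicate 2 (0.166 and 0.111), the KO with WT call also without either WT library (0.0836 and 0.125) and the T133A with KO call without T133A replicate 2 (0.0965). ATXN1, a partner of CIC, fell in KO against WT (-0.69) and was higher in T133A than in KO (0.67). DDB1 rose in KO (0.40), and DET1, a substrate adaptor of the ligase that degrades these factors, fell (-1.24, adjusted p = 0.0293) at a low level, 0.703 CPM in KO and 1.69 CPM in WT; the call was lost with DESeq2, with the GC and length correction, without WT replicate 1 and without KO replicate 1 (adjusted p over the alternatives up to 0.295). Between T133A and KO, 1 was higher and 1 lower (39.9% of all genes called).

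The protein-coding genes whose levels over the 6 libraries ran closest to each family's example were found among 10782 candidates by the Euclidean distance of log2 CPM, each gene centred on its mean. For DUSP6 they were KANK1, WIPF1 and SRCIN1, at distances of 0.219, 0.228 and 0.236. KANK1 had 45.3 and 42.3 CPM in T133A, 19.9 and 18.4 CPM in KO, and 36.6 and 36.1 CPM in WT. For SPRY4 they were KIAA0355, EDEM1 and CCDC6, at 0.086, 0.094 and 0.105, and for ETV5 DSTYK, TSPAN6 and BTBD9, at 0.055, 0.057 and 0.067. SPRY4 and ETV5 were not called in KO with WT, where SPRY1, SPRY2 and ETV4 were lower. Genes close to SPRY4 or ETV5 therefore do not stand for SPRY1, SPRY2 or ETV4. The distance was not scaled to how much a gene varied, so values for DUSP6, SPRY4 and ETV5 cannot be compared with each other. The 6 libraries form 3 pairs, so such likeness rests on few independent points.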

How the data were processed

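RNA from 6 A549 libraries, 2 each of T133A, KO and WT, was analysed from deposited tables that hold, per gene, the authors' read counts and FPKM values. Per the submitters' processing notes, HISAT2 2.0.5, featureCounts 1.5.0 and the GRCh38 build were used; no source used here gives the strand setting or annotation release. The deposited raw counts were tested with edgeR 4.0.16 in R 4.3.3: genes kept by filterByExpr (16340 of 58735), TMM scaling, 1 quasi-likelihood fit over all 3 groups, and Benjamini-Hochberg adjustment over all genes tested, called at an adjusted p under 0.05. CPM values are TMM-scaled counts, intervals are 95% intervals, and SE is the log2 fold change divided by the square root of F. The authors' deposited FPKM served only for levels between genes. The biological coefficient of variation was 8.96%, and a chi-square test between the 2 libraries of a group gave 9.16, 11.0 and 2.37 per degree of freedom in T133A, KO and WT, above sampling noise. Gene symbols that a spreadsheet had turned into dates (27) were restored by gene ID. Positions were compared with GENCODE 29, where 99.9% of gene IDs had the same position. Promoter windows came from RefSeq (GRCh38.p14). The scripts were tested on simulated counts.

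The 10 genes, the other pathway lists and the tests were chosen with earlier results of these data known. Besides the 10 genes and HOXB9, the text names, per list and comparison, up to 4 called genes of smallest adjusted p, or the most abundant where none was called; the same gene may be given in the other comparisons. Overlapping neighbours and their values were added as a description. Alternatives were RLE or library-size scaling, DESeq2 1.42.0, testing every gene with a count, keeping genes that average 5 CPM or more, a fit of the 2 compared groups alone, a block for replicate number, a loess correction (span 0.5, per library) for GC content and length with and without that block, and leaving out each library in turn. A crossed replicate block was added after the data were seen.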

Additional observations from a re-analysis of the deposited data

How the results depend on the processing

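Of 450 alternative values of the 10 genes' fold changes, 414 kept their direction and their side of the threshold, 9 lost a call, 5 gained one and 22 changed sign, all of the last in differences that were not called. SPRY1, SPRY2, DUSP6 and ETV4 kept their calls both in KO with WT and when T133A was set against KO, under every alternative run. In T133A with WT, the count of called genes among the 10, 0 by edgeR, was 1 with the GC and length correction and 1 with the crossed replicate block (ETV5 in both), and 0 to 1 when 1 library was left out (ETV4 without T133A replicate 2). The count stayed at 4 to 6 in KO with WT and 5 to 7 in T133A with KO. The calls of the other pathway lists in T133A with WT, 17, ran from 12 to 29 when 1 library was left out; without T133A replicate 2 they were 29, with 21 higher and 8 lower, against 15 higher and 2 lower, and the split was 15 to 5 with RLE and 12 to 4 with library-size scaling. They ran from 32 to 55 for KO with WT, and from 33 to 46 when T133A was set against KO. The cause of these changes was not tested.

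The values that changed sign were small. For T133A with WT, SPRY2 was -0.0524 with library-size scaling, -0.003 with the filter at 5 CPM and -0.0572 to 0.0839 when 1 library was left out (negative without WT replicate 2). SPRED1 was -0.0037 with RLE and with DESeq2, -0.0655 with library-size scaling, -0.017 with the filter at 5 CPM, -0.0056 with only the 2 compared groups, and -0.1047 to 0.1248 when 1 library was left out (negative without WT replicate 2, T133A replicate 2 or either KO library). ETV1 was 0.0408 with the GC and length correction and 0.0433 when the replicate block was added, and HOXB9 ran from -0.0473 without T133A replicate 1 to 0.3272 without T133A replicate 2. For KO with WT, SPRED1 was 0.0928 and ETV1 0.1288 with that correction, and 0.0914 and 0.1297 with the block added. For T133A with KO, ETV1 was -0.0879 with the correction and -0.0864 with the block added, and -0.0137 to 0.2243 when 1 library was left out (negative without T133A replicate 2), and DUSP5 was -0.0201 to 0.1686 (negative without KO replicate 1). Of the named genes of the other lists, 819 values were kept, 48 lost a call and 0 changed sign. The cause was not tested.

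The replicate numbers carry no stated pairing. Deviations of same-numbered libraries correlated at -0.16 for T133A and WT, 0.096 for KO and WT and -0.32 for T133A and KO. Whether libraries of different groups shared a batch, under the same or different numbers, was not tested. With the replicate block, 0 of the 10 genes and 1419 of all genes were called for T133A with WT (1560 without it), 4 and 7165 for KO with WT (7622 without it), and 6 and 6031 for T133A against KO (6523 without it). With the crossed pairing these were 2830, 8624 and 7609. Across all genes tested, the correction for GC content and length called 2471 in T133A with WT; without WT replicate 1, WT replicate 2 and T133A replicate 2 the counts were 763, 840 and 2579. The difference between replicates followed GC content in T133A (Spearman's rho across genes -0.50), in KO (0.29) and in WT (0.18); genes are not independent replicates. With 2 libraries a group, small differences such as those of ETV5 and SPRY4 in T133A with WT could be missed. How small a difference these libraries can show was not tested.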
